A study of Drosophila melanogaster with 10 samples.

Results

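Tubulins and actins are the building blocks of microtubules and actin filaments. Microtubules are polymers of a dimer of 1 alpha and 1 beta tubulin, and an insect makes each subunit from several genes, called isotypes, that differ in the tissues that use them. In Drosophila, alphaTub84B, alphaTub84D and betaTub56D are broadly used, alphaTub67C is the maternal alpha tubulin of the ovary and early embryo, and betaTub85D builds the microtubules of the male germ line, among them the axoneme of the sperm tail. Act5C and Act42A are the cytoplasmic actins of non-muscle cells, and the other actin genes of the fly serve muscle. In the principal cells of the Malpighian tubule, the insect kidney, actin fills the microvilli of the apical brush border, and microtubules carry traffic through the cell.

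The members were the probe sets of the Affymetrix Drosophila genome array whose only annotated gene was one of 10 genes, 8 for tubulins and 2 for cytoplasmic actins. The rule found 9 probe sets of 13966 on the array, for 7 of the 10843 genes it names, all of them tubulins. Act5C, Act42A and alphaTub84B had no probe set annotated to them alone and are not measured here, and 0 probe sets annotated to several genes named a member. Of the 9 probe sets, 5 carry a suffix that Affymetrix gives where unique probes could not all be found: f marks probes shared by a gene family, i an incomplete set, and r a set for which selection rules were dropped. Whether the signals of those 5 belong to 1 gene alone was not tested.

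RNA came from Malpighian tubules dissected from 7-day-old adults of the Oregon R strain, mixed sexes, and from whole flies of the same age, strain and mix of sexes, with 5 arrays of each, numbered 2 to 6. Each tubule array was matched to the whole fly array of the same number, which came from the same culture. Each array drew on RNA of many pooled animals, and the whole flies still held their tubules. Signals are MAS 5.0 values on a linear scale, and the trimmed mean is the same in every array. The lowest signal in any array was 0.1, and between 52.2% and 65.0% of probe sets in an array lay under 50, so low values are near background. The 6 measured genes of a tubule marker list (Irk3, Vha55, Drip, Lkr, ct and tsh) were all higher in tubule. Over the array 16.8% of probe sets were called higher. The study lists all 6 genes as enriched in tubule from these same arrays, so they give no independent check of the tissue. Lists for other tissues varied among the tubule arrays, most for male accessory glands, whose median lay between -3.35 and 1.77 log2 from its mean, and then for midgut enzymes, between -2.04 and 1.47. With bulk RNA a smaller number of cells of a type and less RNA per cell cannot be told apart.

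By limma within pairs, at an adjusted p under 0.05 over the whole array, 8 of the 9 tubulin probe sets passed: 3 with more signal in tubule and 5 with less than in whole fly. Over the array 53.1% of probe sets passed, 16.8% higher and 36.3% lower, so calls are common in this comparison. All 9 averaged at least 50 over the 10 arrays, and among the 6125 probe sets that did so the shares were 29.5% and 41.9%. The split depends on the scaling: 2342 probe sets were higher and 5076 lower as deposited, 4146 and 3441 after quantile normalization, and 1451 and 6453 with RpL32 (rp49), taken as constant in the study's PCR, held at one level. The higher probe sets were both of betaTub60D and that of betaTub97EF. The lower ones were those of alphaTub67C, betaTub85D and betaTub56D, each by over 2-fold, and, by less, one of alphaTub84D and that of alphaTub85E. In 8 probe sets the groups did not overlap, 3 higher and 5 lower (43.7% of all probe sets, 14.1% higher and 29.6% lower). Calls of at least 2-fold made up 9.8% of all probe sets upward and 28.6% downward, and 3 members were in each. The median log2 fold change of the 9 was -0.39, against -0.32 over all probe sets.

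**Figure D1:**
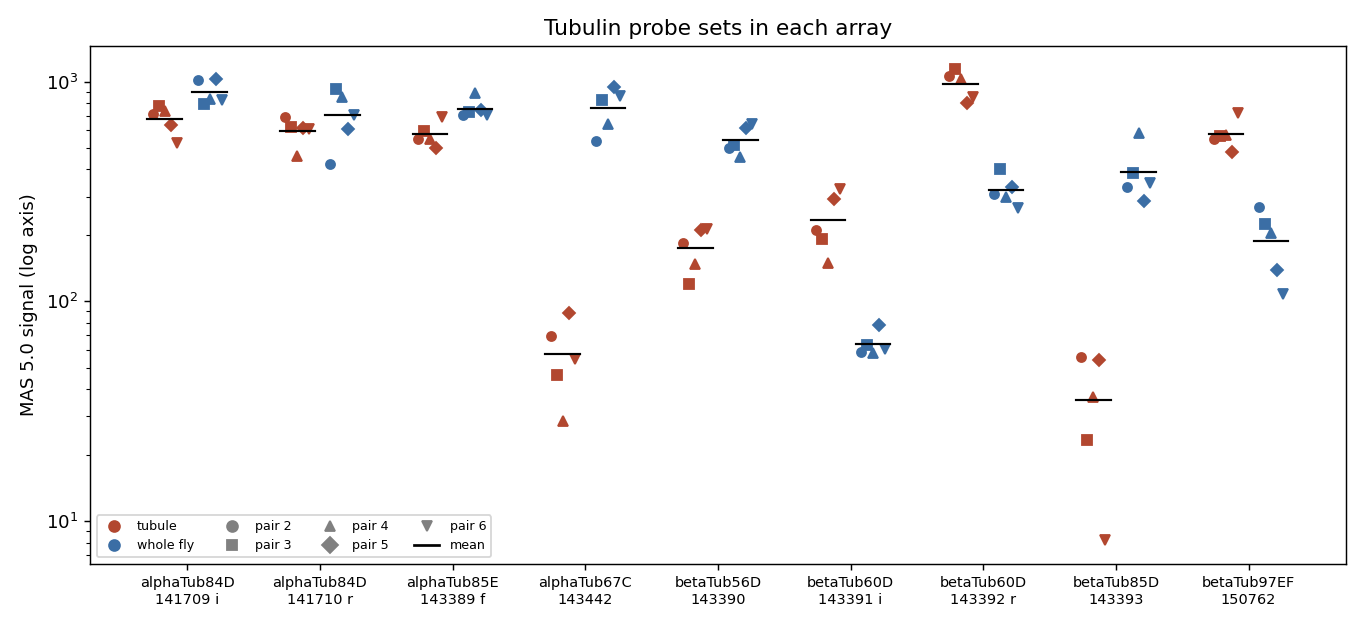
MAS 5.0 signal (log axis) of the 9 tubulin probe sets in each of the 5 tubule arrays (red) and 5 whole fly arrays (blue), with the shape giving the pair and a bar the group mean. The 2 betaTub60D sets and the betaTub97EF set lie higher in tubule without overlap, alphaTub67C, betaTub56D and betaTub85D lie lower, and the alphaTub84D and alphaTub85E groups lie close together.

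betaTub60D, the beta3 tubulin known from developing muscle and sensory organs of the fly, was about 3-fold higher in tubule by both of its probe sets. By set 143392 (suffix r) the tubule signals were 1057.8, 1134.6, 1029, 801.4 and 850.1 in arrays 2 to 6, and those of whole flies 308.3, 399.9, 299.1, 331.1 and 266.4. Every tubule array stood above every fly array. The enrichment, which divides each tubule signal by that of its matched fly array and averages over pairs, was 3.06 ± 0.435 (SD, n = 5 pairs), and the log2 fold change was 1.60 (standard error 0.11, limma adjusted p = 8.3e-06).

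By the other set, 143391 (suffix i), the tubule signals were 212.1, 192.5, 149.9, 291.5 and 324.4, and those of whole flies 58.8, 63.6, 58.5, 78.1 and 60.9. The enrichment was 3.65 ± 1.05 and the log2 fold change 1.82 (standard error 0.17, limma adjusted p = 5.0e-05). Both sets gave the same direction in 5 of 5 pairs, and their within-pair log2 ratios differed by 0.22 ± 0.47 (SD, 143391 minus 143392). The order of the tubule arrays was not the same in them: arrays 5 and 6 were highest by 143391 and lowest by 143392. Over the 5 tubule arrays their log2 signals had a Pearson correlation of -0.81, and over the 5 fly arrays 0.33, which describes probe sets of 1 gene in the same RNA and carries no test.

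betaTub97EF, a beta tubulin that in the fly gut is known to rise in the cold, was higher in tubule as well, and its probe set (150762) has no suffix. Its tubule signals were 547.9, 564, 573.6, 477.1 and 722, and those of whole flies 268.2, 224.7, 204.1, 139 and 108.6. The groups did not overlap, but the fly arrays spread more than the tubule arrays, with a coefficient of variation of 34.2% against 15.5%. The ratio accordingly ran from 2.04 in pair 2 to 6.65 in pair 6, with an enrichment of 3.49 ± 1.84. The log2 fold change was 1.67 (standard error 0.22, limma adjusted p = 3.7e-04).

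betaTub56D, the broadly used beta1 tubulin, moved the other way. The tubule signals of its set 143390, with no suffix, were 185, 120.2, 148.6, 211.9 and 213.1, and those of whole flies 496.5, 514.7, 455.3, 613.4 and 640.6. Each tubule array was well below each fly array, at an enrichment of 0.322 ± 0.0526 and a log2 fold change of -1.65 (standard error 0.12, limma adjusted p = 1.5e-05). In tubule arrays 3 and 4 the signal was lowest, and in arrays 5 and 6 highest.

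betaTub85D, the beta2 tubulin of the male germ line, was at 0.101 ± 0.0727 of the whole fly signal (SD, n = 5 pairs). Its set 143393, with no suffix, read 55.8, 23.4, 36.7, 54.2 and 8.2 in tubule and 332.7, 384, 582.8, 287.4 and 347.1 in whole flies. It had the widest spread of the 9 sets among tubule arrays, with a coefficient of variation of 57.0%, and 3 of the 5 tubule signals were under 50. The log2 fold change was -3.68 (standard error 0.40, limma adjusted p = 1.3e-04). With signals under 50 set to 50 it was -2.85.

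**Figure D2:**
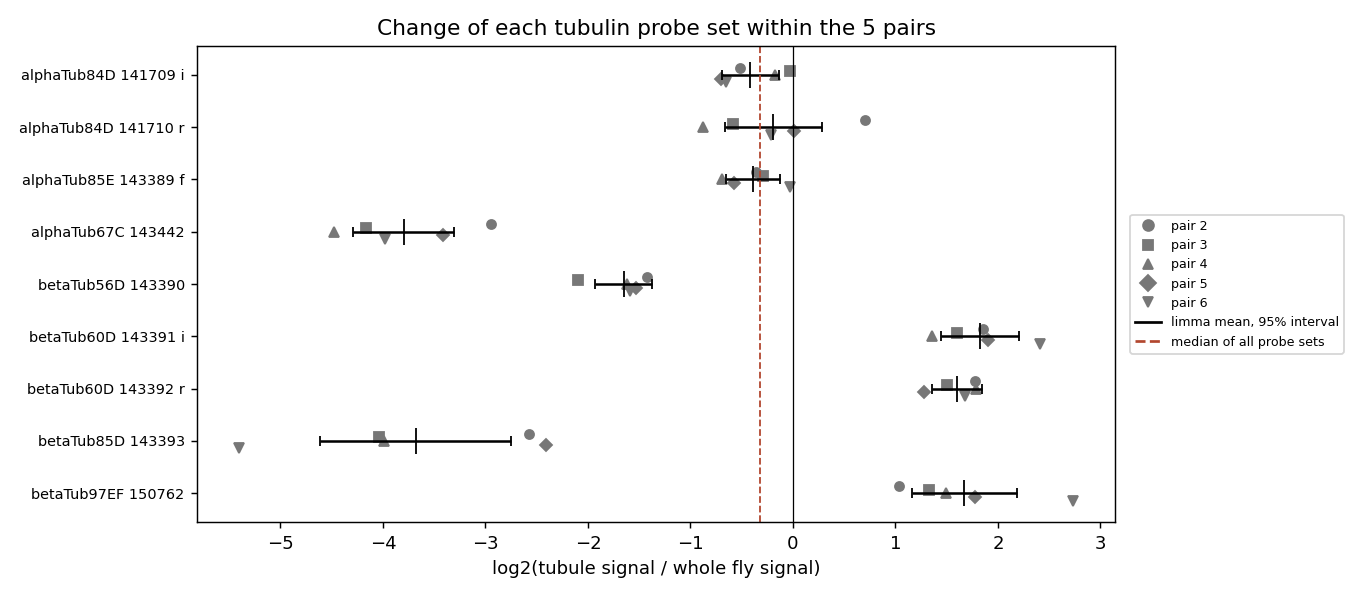
Log2 ratio of tubule to whole fly signal in each of the 5 pairs (grey shapes) for the 9 tubulin probe sets, with the limma mean and its 95% interval (black) and the median of all probe sets at -0.32 (dashed). The intervals of betaTub60D, betaTub97EF, betaTub56D, betaTub85D and alphaTub67C lie away from both lines, and those of alphaTub84D and alphaTub85E hold the dashed line.

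Among the alpha tubulins, alphaTub67C had the lowest ratio, at 0.0775 ± 0.0343 of the whole fly signal. The tubule signals of its set 143442, with no suffix, were 69.6, 46.1, 28.6, 88.7 and 54.5, and those of whole flies 537.2, 826.8, 638, 946.7 and 857.9. The groups were far apart, with a log2 fold change of -3.80 (standard error 0.22, limma adjusted p = 3.5e-06). At least 8-fold lower calls, which alphaTub67C and betaTub85D both reached, made up 7.7% of all probe sets. With signals under 50 set to 50, alphaTub67C still reached 8-fold (-3.61 log2) and betaTub85D did not (-2.85 log2).

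alphaTub84D, whose protein is nearly the same as that of alphaTub84B, changed little. By set 141709 (suffix i) the tubule signals were 710.4, 774.5, 738.1, 631.3 and 524.2, and those of whole flies 1015, 787.4, 835.7, 1028.3 and 823.1. The groups missed each other by a narrow margin, 774.5 against 787.4, and the log2 fold change was -0.41 (standard error 0.12, limma adjusted p = 0.020, enrichment 0.764 ± 0.162). By set 141710 (suffix r) the tubule signals were 686.3, 620, 460.2, 612 and 607.8 and those of whole flies 421.3, 928.2, 846.3, 607.4 and 706.4. These groups overlapped, 3 pairs had lower and 2 higher tubule signals, and the log2 fold change was -0.19 (95% interval -0.67 to 0.28, limma adjusted p = 0.46). In whole flies the log2 signals of the sets had a Pearson correlation of -0.86 over 5 arrays, a description of probe sets of 1 gene in the same RNA.

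alphaTub85E, an alpha tubulin with a restricted pattern in the fly that includes muscle attachment sites and sensory organs, was read by set 143389, whose suffix f marks a gene family. The tubule signals were 545.9, 593.7, 548.7, 500.8 and 689.3, and those of whole flies 702.7, 725.1, 887, 744.4 and 705. The highest tubule array, 6, lay just under the lowest fly array. The log2 fold change was -0.39 (standard error 0.11, limma adjusted p = 0.019, enrichment 0.773 ± 0.140).

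The calls of alphaTub84D and alphaTub85E depended on single pairs. Set 141709 did not pass without pair 5 (limma adjusted p = 0.070) or pair 6 (limma adjusted p = 0.077), and alphaTub85E did not without pair 4 (limma adjusted p = 0.064) or pair 5 (limma adjusted p = 0.063). Both passed under each of the 3 scalings, but their distance from the median of all probe sets moved with it. As deposited, their log2 fold changes were -0.10 and -0.07 from that median. After quantile normalization, which moved that median to 0.17, they were -1.03 and -0.92 from it. With RpL32 held constant, the median was -0.66 and the distances were again -0.10 and -0.07. The signs of all 9 probe sets were the same under the 3 scalings, and after quantile normalization 5 sets were lower and 3 higher.

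To compare the isotypes of a class, the within-pair log2 ratios were set against each other for 9 gene pairs, 3 of alpha and 6 of beta tubulins. The test was an exact two-sided sign-flip permutation test over the 5 pairs, which cannot go below p = 0.0625. A gene with more than 1 probe set was read by the one of highest mean. For 7 of the gene pairs the difference had 1 sign in all 5 pairs (exact permutation p = 0.0625, adjusted over the 9 to 0.080), so with 5 pairs none of the 9 passed. The change of betaTub56D minus that of betaTub60D (set 143392) was -3.25 ± 0.29 log2 (SD, n = 5), and minus that of betaTub97EF -3.32 ± 0.67. The change of betaTub56D minus that of betaTub85D was 2.03 ± 1.16, or 1.2 with signals under 50 set to 50. alphaTub67C lay -3.38 ± 0.83 from alphaTub84D and -3.41 ± 0.64 from alphaTub85E. In the remaining gene pairs the sign varied: alphaTub84D minus alphaTub85E was -0.02 ± 0.43 (from -0.62 to 0.51 over the pairs, exact permutation p = 0.94, n = 5), and betaTub60D minus betaTub97EF was -0.07 ± 0.71 (from -1.06 to 0.75, exact permutation p = 0.81, n = 5).

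betaTub85D and alphaTub67C were compared with markers of the tissues that use them. By the study's methods, tubules were cut from the gut at the lower ureter to keep other tissue out. Over all probe sets 36.3% were lower and 16.8% higher. Of 20 measured testis and sperm genes, 14 were lower in tubule and 0 higher, and 7 had a mean of at least 50 in tubule. Among those not called, can, sa, mia, aly and comr had means under 50 in both groups. The other gene not called, bol, lay well above that level, at 250 ± 32.7 in tubule and 360 ± 92.9 in fly (limma adjusted p = 0.054). The summed signal of the 20 genes was 634.8 to 2483.6 in tubule arrays and 6545.5 to 15205.5 in fly arrays. All 17 measured female germline genes were lower, 3 with a mean of at least 50 in tubule, and with a summed signal of 272.6 to 808.4 in tubule and 4646.5 to 7352.4 in fly. All 11 measured male accessory gland genes were lower, and their summed signal ran from 190.6 to 6884.6 among tubule arrays (9200.6 to 14908 in fly).

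Within the tubule arrays the germline isotypes were set beside these lists. In log2 from the mean of the 5 tubule arrays, betaTub85D lay at 0.93, -0.32, 0.33, 0.89 and -1.83 in arrays 2 to 6, and the median of the testis and sperm genes at 0.20, 0.11, -0.09, 0.85 and -0.60. Both were lowest in array 6 and high in array 5, but in arrays 3 and 4 their signs differed. The median of the male accessory gland genes lay at 1.12, -0.66, 1.05, 1.77 and -3.35, with the sign of betaTub85D in each array. alphaTub67C lay at 0.38, -0.22, -0.91, 0.73 and 0.02, and the median of the female germline genes at 0.28, -0.52, -0.66, 0.96 and -0.38. Both were highest in array 5 and lowest in array 4. In fly arrays 2 to 6 betaTub85D lay at -0.17, 0.03, 0.64, -0.38 and -0.11, and the testis and sperm median at -0.43, 0.15, 0.67, -0.30 and 0.09. Both were highest in fly array 4, but the lowest was array 5 for betaTub85D and array 2 for the list. alphaTub67C lay at -0.47, 0.15, -0.22, 0.34 and 0.20 in the same fly arrays, beside a female germline median of -0.47, 0.06, -0.24, 0.33 and 0.22. The course of alphaTub67C was not particular to that isotype. The broadly used betaTub56D lay at -0.12, -0.07, -0.24, 0.19 and 0.25 in fly arrays, with the sign of alphaTub67C except in array 3. In tubule arrays betaTub56D lay at 0.11, -0.51, -0.21, 0.30 and 0.31, with the sign of alphaTub67C in each. It did not share the course of betaTub85D, whose sign differed from it in tubule arrays 4 and 6. These are descriptions over 5 arrays with no test, and each list's genes and the tubulin were read from the same RNA. In tubule array 6, the lowest for testis genes, betaTub85D read 8.2, and ocn, a testis gene, 3. osk, the germ plasm gene that is a defining marker of the female germ line, read between 2 and 78.5 over the tubule arrays. The part of such transcripts in the low tubule signals of betaTub85D and alphaTub67C was not tested.

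**Figure D3:**
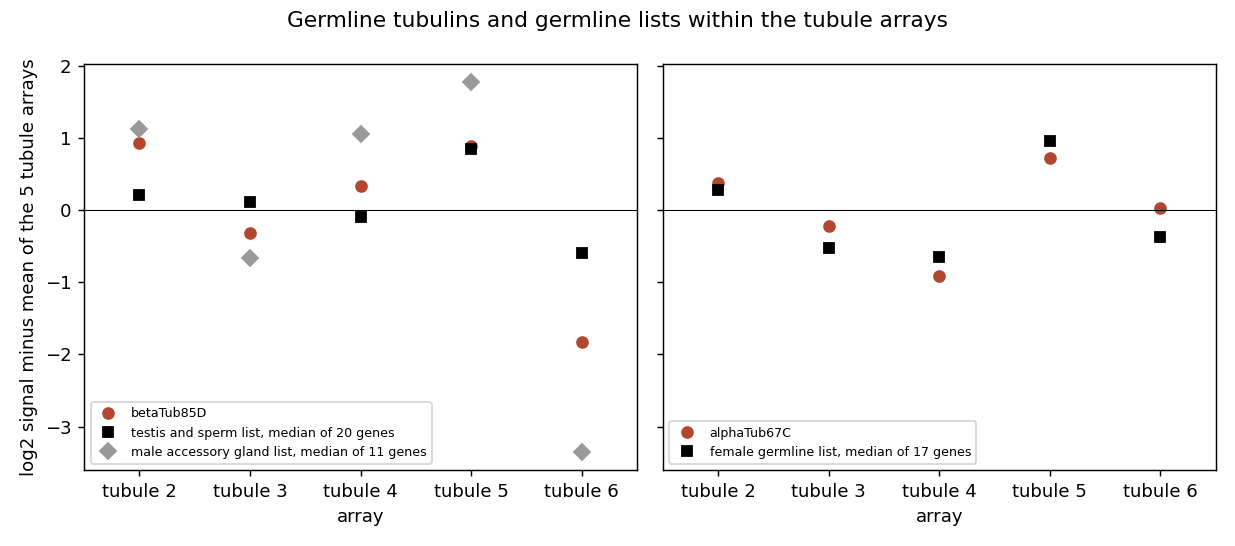
Log2 signal minus the mean of the 5 tubule arrays, for tubule arrays 2 to 6, with betaTub85D beside the medians of the testis and sperm list (20 genes) and the male accessory gland list (11 genes) on the left, and alphaTub67C beside the median of the female germline list (17 genes) on the right. betaTub85D is lowest in array 6 at -1.83 and alphaTub67C in array 4 at -0.91, the arrays in which the list medians are lowest too.

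The genes with the most similar course over the 10 arrays were sought among 6409 probe sets of 1 gene with a mean of at least 50 in tubule or fly, by Pearson correlation of log2 signal, as a description that the 2 groups dominate. For betaTub85D they were ocn, a testis gene (0.998, tubule signal 19.4 ± 12.7, fly 273 ± 112), and CG2533 (0.995). For alphaTub67C they were CG4991 (0.999) and Pxt, a peroxidase gene needed in oogenesis (0.996), and for betaTub56D the kinesin gene Klp68D (0.995) and nanos, a germ plasm gene (0.994). betaTub60D ran closest to ATPsynE and ATPsyndelta, subunits of the mitochondrial ATP synthase (0.992 and 0.990), and betaTub97EF to NAAT1, an amino acid transporter gene, and lola, a transcription factor gene (0.989 and 0.987). The closest genes to alphaTub84D were alpha-Est8 and DhpD (0.948 and 0.946), and to alphaTub85E Usp2 and CG15286 (0.933 and 0.927). Of the genes named, ocn, CG2533, CG4991, Pxt, nanos, alpha-Est8 and CG15286 had tubule means under 50 and entered by their fly mean alone. Their correlations thus rest largely on the difference between the groups and give no link to a tissue.

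Of the cytoplasmic actins the array holds only indirect readings. The array has 3 actin control probe sets, placed at the 5' end, the middle and the 3' end of an actin transcript, and the RefSeq gene table lists the name of the middle one under Act42A. They are outside the member rule and the fit, and the other actin genes share much of their sequence. The middle set (suffix r) read 344.6, 283.2, 238.5, 305.3 and 273.9 in tubule and 1261.3, 835.8, 869.6, 1073.5 and 904 in whole flies, a ratio of 0.295 ± 0.0274 (SD, n = 5 pairs).

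The sets at both ends were lower in tubule too. The 5' set read 97.5, 74.3, 46.9, 68.2 and 44.9 against 419.7, 285.6, 251.2, 296.2 and 271.4, a ratio of 0.215 ± 0.0382, and the 3' set read 163.1, 104.4, 90.8, 162.6 and 52.8 against 660.2, 480.2, 461.6, 526.5 and 526.2, a ratio of 0.214 ± 0.0763. By all 3 sets each tubule array was below each fly array. The order of the sets depended on the scaling: as deposited the log2 fold changes of the 5' and the middle set were -2.24 and -1.77, and after quantile normalization -2.0 and -2.09. The ratio of 3' to 5' signal, a sign of RNA and labelling quality, was 1.71 ± 0.470 in tubule and 1.76 ± 0.141 in fly for actin, with the groups overlapping. For the GAPDH and eIF-4a controls it was 2.80 ± 0.176 and 2.61 ± 0.332 in tubule and 3.63 ± 0.183 and 3.76 ± 0.275 in fly, without overlap. The study's methods ask for a ratio under 3 in test genes, which they do not name. Every fly array lay above 3 for GAPDH (3.39 to 3.88) and eIF-4a (3.45 to 4.08), as did tubule array 2 for eIF-4a (3.12). The part of this ratio in the actin and tubulin ratios was not tested.

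The muscle actins were lower too, as were all 11 measured genes of a muscle list, against 36.3% of all probe sets. The summed signal of that list was 535.9 to 1107.4 in tubule and 7605.9 to 8856 in fly. Act88F, the actin of the flight muscle, read 1.7 to 3.9 in tubule and 247.3 to 525.2 in fly (log2 fold change -6.97, limma adjusted p = 7.0e-07), at a tubule level near background. Act79B read 207 ± 31.8 in tubule and 1163 ± 85.3 in fly (log2 fold change -2.50, limma adjusted p = 1.5e-06), and Act87E 1347 ± 162 and 1976 ± 74.9 (-0.56, limma adjusted p = 9.9e-04). The sets of Act79B and Act87E carry the suffix f, which marks probes shared within a family, and the part of other actins in their signal was not tested. Act57B had no probe set of its own.

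**Figure D4:**
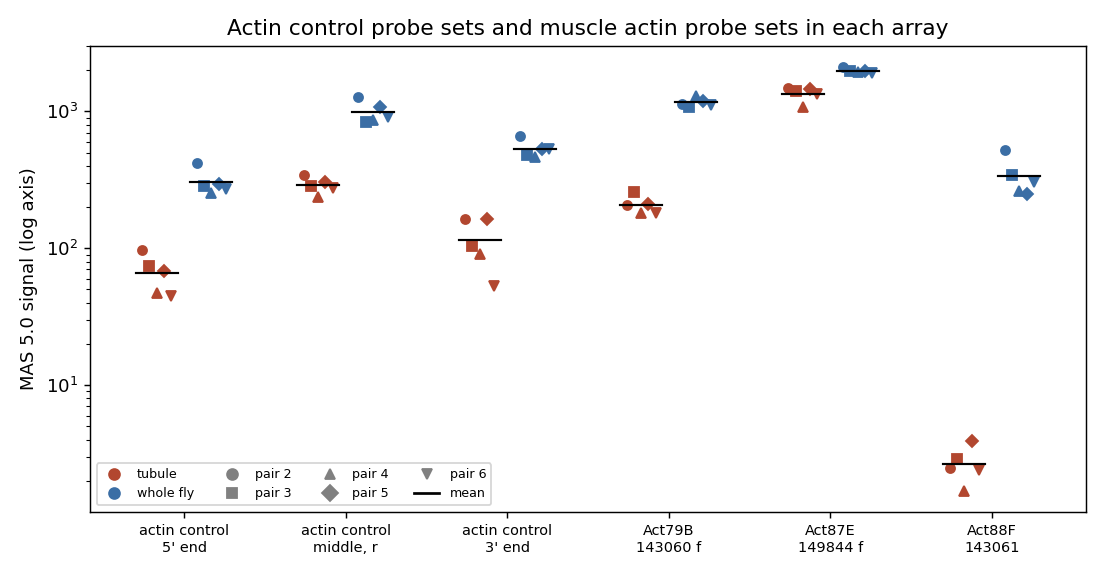
MAS 5.0 signal (log axis) of the 3 actin control probe sets and the 3 muscle actin probe sets in each tubule array (red) and whole fly array (blue), with the shape giving the pair and a bar the group mean. Tubule lies below fly without overlap in all 6, least for Act87E and most for Act88F.

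Of the other tubulin genes, gammaTub37C, the maternal gamma tubulin of the spindle poles, was lower in tubule by set 142806 (7.1 to 12.6 against 119.8 to 244.1, log2 fold change -4.34, limma adjusted p = 6.3e-06). Its other set, 142036, read 28.8 ± 9.97 in tubule and 24.2 ± 5.55 in fly and did not pass (limma adjusted p = 0.58). CG7794, annotated as a member of the tubulin family, was lower (49.2 ± 19.4 against 202 ± 64.0, log2 fold change -2.14, limma adjusted p = 5.6e-04), and betaTub65B did not pass (28.5 ± 3.99 against 48.1 ± 17.4, limma adjusted p = 0.059). gammaTub23C had no probe set of its own.

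Genes of the CCT chaperonin, the ring in which newly made actin and tubulin fold, were mostly lower in tubule. Of its 8 subunit genes 7 were lower and 0 higher. Over the array 36.3% of probe sets were lower, and 41.9% of those averaging at least 50. The median log2 fold change of the 8 was -0.74, against -0.32 over all probe sets and -0.22 over those averaging at least 50. CCT2 (enrichment 0.455 ± 0.0757), CCT1 (0.533 ± 0.0845) and CCT7 (0.572 ± 0.171) fell most. CCT3, named after its value was seen, did not pass (0.797 ± 0.237, limma adjusted p = 0.093). Quantile normalization left 7 lower, and holding RpL32 constant gave 8.

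Prefoldin hands unfolded actin and tubulin to that ring, and the tubulin cofactors build the alpha-beta dimer. Of 11 genes on this list 5 were lower and 0 higher. Over the array 36.3% of probe sets were lower and 16.8% higher, or 41.9% and 29.5% at a mean of at least 50. Among the lower genes were Tbcb (enrichment 0.601 ± 0.188), Tbca (0.708 ± 0.233) and Pfdn6 (0.694 ± 0.108). The list's median of -0.25 turned to 0.10 after quantile normalization, with 3 genes higher and 2 lower. Its direction thus changed with the scaling, as did that of the median of all probe sets, from -0.32 to 0.17.

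Genes that act on finished filaments included higher and lower ones, at shares to be read against 16.8% higher and 36.3% lower over the array, or 29.5% and 41.9% at a mean of at least 50. Of 10 genes for microtubule binding and severing, 2 were higher and 4 lower: tau, a microtubule stabilizer, was higher (enrichment 3.67 ± 1.65), and stai, the stathmin that binds free tubulin dimers (0.116 ± 0.0944, at a tubule signal of 5.62 ± 4.26), and Map205 (0.494 ± 0.108) were lower. Of 11 motor genes 2 were higher and 3 lower, and the lower ones were the mitotic kinesin Klp61F (0.119 ± 0.0743), the axonal kinesin unc-104 (0.390 ± 0.111) and Klp10A, a kinesin that takes microtubules apart (0.442 ± 0.0411).

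Of 15 genes of actin turnover 5 were higher and 3 lower. The formin dia, which nucleates and extends actin filaments, was higher (enrichment 2.12 ± 0.147), and cib, a thymosin-like protein that binds actin monomers (0.0980 ± 0.0426), and Arpc2, a subunit of the Arp2/3 complex (0.503 ± 0.118), were lower. The other measured subunits of that complex, named after their values were seen, were mixed. Arpc5 was higher by a log2 fold change of 0.68 (limma adjusted p = 7.4e-04) and Arpc1 by 0.42 (limma adjusted p = 0.048). Arpc3A (-0.26, limma adjusted p = 0.14) and Arpc4 (-0.22, limma adjusted p = 0.43) did not pass. These splits also moved with the scaling: after quantile normalization 3 genes for microtubule binding were higher and 2 lower, 3 motor genes higher and 4 lower, and 4 genes of actin turnover higher and 4 lower. With RpL32 held constant the counts were 1 and 6, 0 and 7, and 2 and 6. The medians of these lists were -0.23 for binding and severing, -0.10 for motors and -0.22 for actin turnover, against -0.32 over all probe sets. After quantile normalization they were 0.19, -0.26 and 0.16, against 0.17 over all probe sets.

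**Figure D5:**
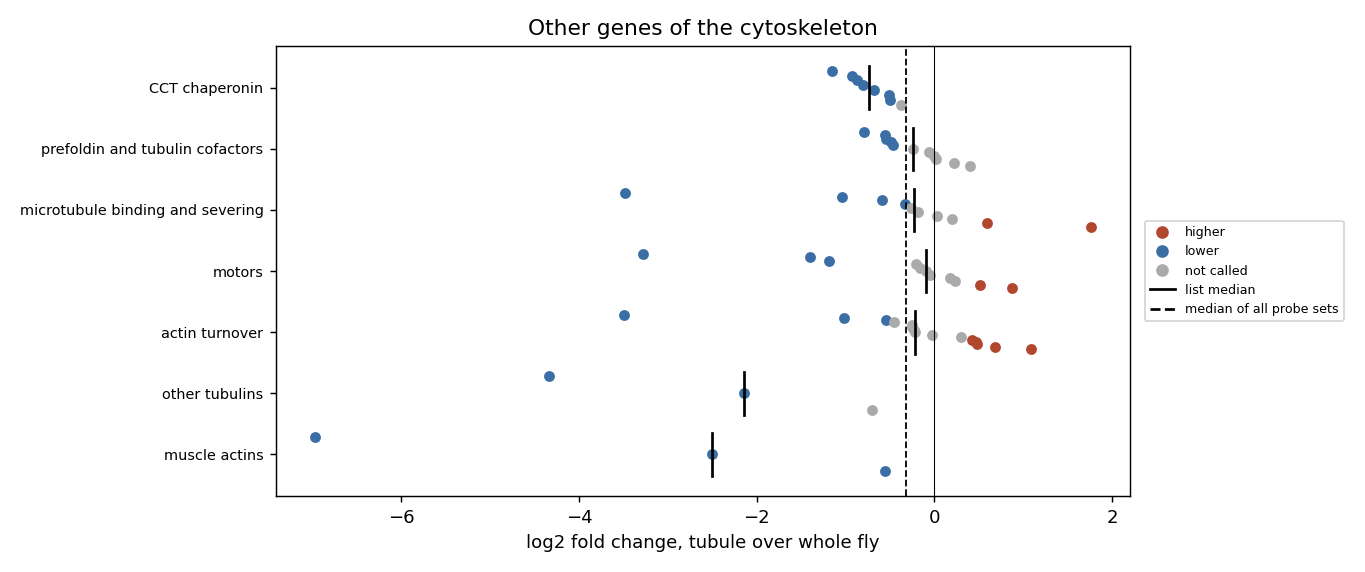
Log2 fold change, tubule over whole fly, of each measured gene of 7 further cytoskeleton lists, coloured by the limma call, with list medians (solid) and the median of all probe sets at -0.32 (dashed). The CCT chaperonin genes lie left of the dashed line with a median of -0.74, and the lists for binding proteins, motors and actin turnover spread to both sides.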

How the data were processed

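The authors hybridized RNA of tubules and of whole flies to Affymetrix Drosophila genome arrays. They made the signal of each probe set with MAS 5.0 before they deposited it, by background subtraction, robust summary of perfect match and mismatch probes and linear scaling of each array. Detection calls were not used here, and the first of 6 pairs was left out by the authors after quality control. Of 14010 probe sets, 44 array controls were set aside. Platform annotation gave 12442 of the rest 1 gene, 327 several and 1197 none, and 12393 of the first were matched to a RefSeq gene table for current symbols. It served for names only.

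Signals were taken to log2 and tested in R 4.3.3 by limma 3.58.1 (lmFit and trended eBayes). Pairs entered the model as a blocking factor, with Benjamini-Hochberg adjustment over 13966 probe sets. The fit was also run on simulated data with no pair effect and the same spread in both groups. Those settings differ from these data, and the outcome is not given here. Pairs rest on the study's methods (same culture). Deviations of same-numbered arrays had correlations of 0.003, 0.085, -0.089, -0.006 and 0.091 (6125 probe sets with a mean of at least 50), each under 0.1, so the signals themselves show no pairing. That arrays stand for separate cultures rests on the methods alone: p-values measure the spread between these arrays, and 5 a group limit the precision. A list's gene was read by its probe set of highest mean. Genes named are all members, the related tubulins and muscle actins, at most 3 with the largest called change of each list, and 2 nearest genes per member. The members and lists were chosen with earlier results of these data known. Alternatives were other scalings, floors, filters, tests and pairs left out.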

Additional observations from a re-analysis of the deposited data

Results flagged for a closer look

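In 18 groups of 5 arrays (9 tubulin probe sets in tubule and in whole fly), 2 held an array whose gap to its nearest neighbour was a large part of the group's range by Dixon's test on log2 signals, and chance alone marks about 1 group in 20. Whole fly array 4 read 887 for alphaTub85E (set 143389), against 702.7 to 744.4 in the other 4. Without pair 4 the log2 fold change of this set was -0.31 (limma adjusted p = 0.064). Whole fly array 5 read 78.1 for betaTub60D (set 143391), against 58.5 to 63.6 in the other 4, with a gap of 0.711 of the range at a critical value of 0.71.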

How the results depend on the processing

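betaTub56D, betaTub60D (both sets), betaTub85D, alphaTub67C and betaTub97EF kept their call and direction under all 15 alternatives. Over the 9 sets, 123 of 135 values kept their side of the threshold and 0 changed sign. Sets called lower, 5 as reported, were 3 with signals under 50 set to 50, with eBayes without a trend and with pairs 4 and 6 alone (chosen after the data were seen, as their tubule arrays were lowest in midgut enzymes), where the sets lost were those of alphaTub84D and alphaTub85E. Of the sets with no suffix, 3 were lower and 1 higher. The other alphaTub84D set (141710) passed with RpL32 held constant (limma adjusted p = 0.045). Leaving out 1 pair gave 3 to 5 lower (3 without pair 5) and 3 higher. Over the array, probe sets called higher (2342) were 4146 (3441 lower) by quantile normalization and 1451 (6453 lower) by RpL32, and those called lower (5076) were 2453 with the floor of 50 and 2642 among sets with a mean of at least 50. Leaving out 1 pair gave 1962 to 2222 higher and 4457 to 4877 lower. With no replicate block, 2491 were higher and 5247 lower, and of the members 3 and 5, so the block changed no member's call. The methods' t-test, run here on log2 MAS 5.0 signals without the filters on fold and difference that the study set on its dChip values, gave 2114 higher and 4295 lower at its own threshold, 2492 and 4958 after Benjamini-Hochberg. At the former threshold the members were 3 higher and 4 lower, without alphaTub84D.

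The contrast of alphaTub84D minus alphaTub85E turned to 0.20 with the probe set of lower mean, and ranged from -0.16 to 0.12 with 1 pair left out. That of betaTub60D minus betaTub97EF turned to 0.15 and ranged from -0.27 to 0.18. The other 7 kept their direction under the alternatives run, and betaTub56D minus betaTub85D (2.03) was 1.2 with the floor of 50. The 5' actin control had a log2 fold change of -2.24, or -2.0 by quantile normalization and -2.58 with RpL32 held constant, and the middle one -1.77, or -2.09 by quantile normalization and -2.11 by RpL32 (added after the data were seen). Signals near background limit the size of the betaTub85D and alphaTub67C changes.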
